A study of Homo sapiens with 4 samples.

Results

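The 10 genes described here encode the core machinery that makes microRNAs and silences messages with them: DROSHA, DGCR8, DICER1, AGO1, AGO2, AGO3, AGO4, TNRC6A, TNRC6B and TNRC6C. They are 10 of 20037 protein-coding genes, and every H3K27ac peak in the span of each gene and 50 kb on either side was taken, in hg38 coordinates. The set was chosen by role but also on measured values of these libraries, since TNRC6B stood among the genes with the largest gain of marked length and DGCR8 holds the strongest peak found in the untreated library alone. Those values are given as a description.

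The 4 libraries came from K562, an established human line of chronic myeloid leukaemia in blast crisis, although the series concerns acute myeloid leukaemia. The treated cells received 1 uM daunorubicin, an anthracycline that poisons topoisomerase II, for 18 h, and the control cells received none. Each condition had 1 library of H3K27ac, an acetylation of histone H3 found at active promoters and enhancers, and 1 input library without antibody. There were no replicates, so no difference below has a replicate check. In cells profiled in bulk, more cells with the mark and more mark per cell cannot be told apart.

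In the canonical pathway, DROSHA and its partner DGCR8 form the Microprocessor, which cuts hairpins out of primary transcripts in the nucleus. DICER1 trims the exported hairpin to a short duplex, and 1 strand is loaded into an Argonaute protein. Argonautes bind a TNRC6 (GW182 family) scaffold, which recruits the deadenylases that shorten and destabilise the target message.

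The daunorubicin list had 65118 H3K27ac peaks and the untreated list 38626. Both lists ran from a lowest score of 10, with medians of 41 and 43, and the score is the authors' own value for each peak. No common scale is stated for the 2 lists, so scores are given to place a peak within its own list. Of 8 erythroid and progenitor genes that K562 cells are known for, 7 had a peak within 1 kb of the start with daunorubicin and 6 without it. HBE1, an embryonic globin gene, had none in either list. Among 7 marker genes of other cell types only CD3E, a T cell receptor subunit gene, had a start peak, in both lists. No input peak lay in any of the 10 windows.

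Marked length, the number of base pairs under peaks in a window, was longer with daunorubicin at 8 of the 10 genes and shorter at 2. Across all protein-coding genes marked in either library, 87.4% were longer with daunorubicin, so the members' count is near that background. Leaving aside TNRC6B and DGCR8, 7 of 8 were longer. The length was at least 1.5 times as long at 7 of the 10, TNRC6B among them, and at 6 of 8 without TNRC6B and DGCR8, against 40.5% of all marked genes. With the 38626 highest-scoring peaks of each list this count was 1 of 10, at DICER1, against 19.3% of all marked genes. All these counts take AGO1, AGO3 and AGO4 separately, although their windows overlap and share 18 of 26 regions. The median difference, daunorubicin minus untreated, was 2587 bp over the members and 1312 bp over all marked genes. The members are long genes, with a median length of 127 kb against 24.1 kb, and their windows hold more sequence. Per 100 kb of window the medians were 1077 bp and 913 bp. The number of peaks in a list moves with these lengths. Equal numbers of peaks left 6 of the 10 longer, against 65.4% of all marked genes.

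**Figure D1:**
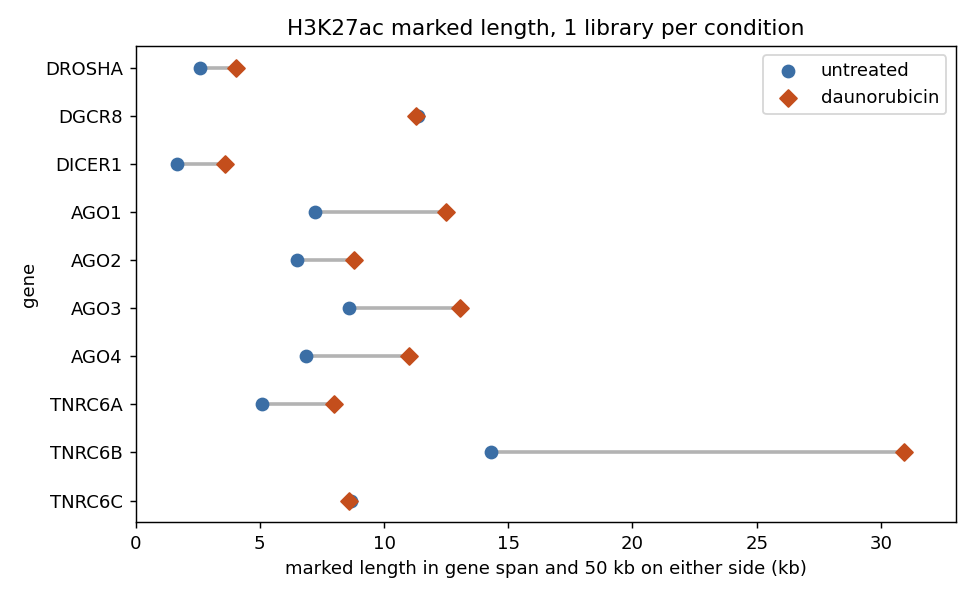
Marked length (kb, x axis) of each gene (y axis) in the daunorubicin library (diamonds) and the untreated library (circles), 1 library each and no error bars. TNRC6B spans the widest interval, from 14321 bp to 30917 bp, whereas the symbols of DGCR8 and TNRC6C nearly coincide.

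Counted once where windows overlap, the 10 windows held 115 regions, formed by joining overlapping peaks of both lists. Of these, 47 were in both libraries, 55 only with daunorubicin and 13 only without it. Every member had at least 1 region found only with daunorubicin, a state shared by 74.0% of all protein-coding genes. A region found only without it lay at 7 of the 10, against 30.1% of all genes, whose windows are shorter. Both AGO1 and AGO3 are counted there, and their overlapping windows share such regions. Of the 60 untreated peaks at the members, 78.3% had a daunorubicin counterpart, against 89.3% of the whole untreated list. The DGCR8 peak on which the set was partly chosen is among those without a counterpart. For the 107 daunorubicin peaks the share with an untreated counterpart was 48.6%, against 53.7% of the whole list.

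Peaks that the daunorubicin library alone held at the members tended to be narrow and low. The medians were 486 bp in width and 25 in score, against 1158 bp and 80 for the members' shared daunorubicin peaks. In the whole list these medians were 435 bp and 26 for unshared peaks. Of the 55, 9 scored above the list's median, as did 5802 of the 30150 unshared peaks of the whole list. For the 13 untreated-only peaks the medians were 427 bp and 19, and 1 of them, in DGCR8, exceeded its list's median score. In the whole untreated list 229 of 4140 unshared peaks did so.

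Every member with a listed start had at least 1 start marked in both conditions. Some further listed starts of DICER1 and TNRC6C had no peak within 1 kb in either library. A peak lay within 1 kb of a start at 9 of the 10 genes in each library, which are the 9 with a listed start, against 64.7% of genes with a listed start in the daunorubicin list and 61.3% in the untreated list. Widths there hardly differed. The 9 start regions summed to 16356 bp in the daunorubicin library and 15725 bp in the untreated one (ratio 1.04), and the difference of 631 bp was 1.95% of the whole difference over the 10 windows, 32438 bp. At starts or ends of other protein-coding genes the summed difference was -306 bp. The 93 regions elsewhere had 61973 bp against 29860 bp, a ratio of 2.08. TNRC6B, chosen for its gain, gave 16487 bp of that difference of 32113 bp, and without it the regions elsewhere had 36078 bp against 20452 bp, a ratio of 1.76. In the whole lists the ratios were 1.11 at starts and 1.96 elsewhere.

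**Figure D2:**
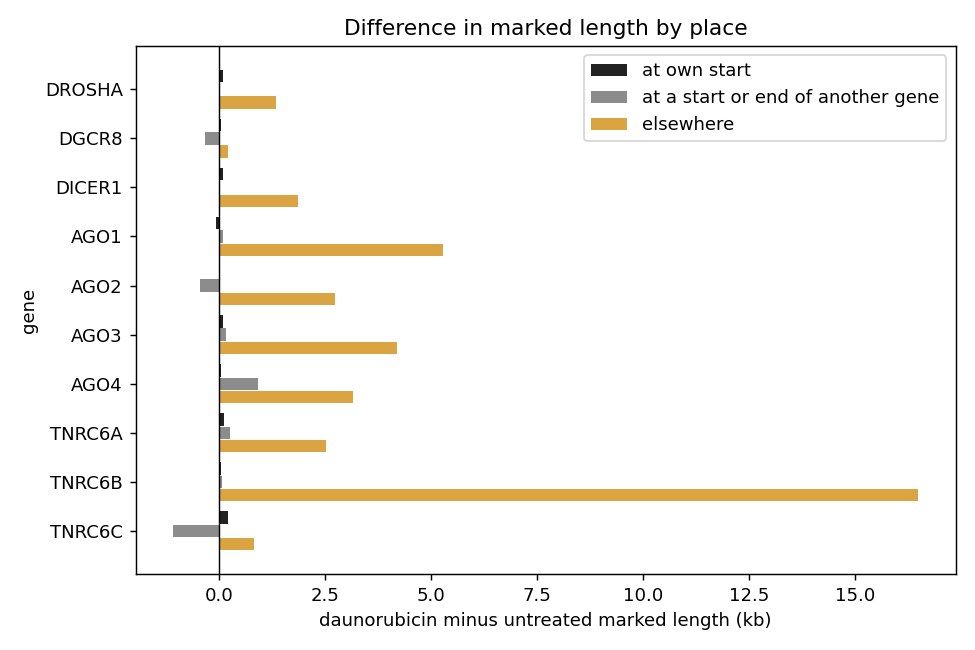
Daunorubicin minus untreated marked length (kb, x axis) of each gene (y axis), split into regions within 1 kb of the gene's own start (black), regions at a start or end of another protein-coding gene (grey) and all others (yellow). The black bars run from -81 bp at AGO1 to 204 bp at TNRC6C, and the longest bar is TNRC6B elsewhere at 16487 bp.

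Promoter sequence was examined because starts were the part of these loci that both libraries marked alike. The RefSeq promoter table of GRCh38.p14 held 16 windows of 300 bases for 9 of the genes. Their GC content ran from 34.0% to 80.3%, with a median of 60.1% against 58.7% over all 35116 windows. Windows overlapped by a peak were the same ones in both libraries. Those at the DICER1 starts 95136801 and 95133503 lay under no peak in either library. Neither did those at the TNRC6C starts 77957557, 78004237 and 78040910. The window of lowest GC content was among these, and all counts here include them. The letters CCAAT, a box common in promoters and counted on both strands, occurred in 8 of the 16 and in 34.6% of all windows. TNRC6B had 5 matches, a count that 0.359% of all windows reach, and DGCR8 had 4, which 0.991% reach. Both were picked as the highest of the 16 counts, so these shares of single windows overstate how rare they are. The letters GGGCGG, bound by SP and KLF factors, occurred in 11 of the 16 and in 45.0% of all. The letters AGATAA, which GATA factors bind, occurred in 4 member windows and in 10.3% of all windows. The 4 belong to DICER1 and TNRC6C. Those of TNRC6C lay under no peak, and the 2 of DICER1 overlap. The letters CCGGAAG, which ETS factors bind, occurred in 3 and in 10.3%. The letters TGANTCA, which AP-1 binds, occurred in 1, a DICER1 window under no peak, and in 7.71%. The E-box CACGTG occurred in 1, of TNRC6C, and in 7.26%. All were searched on both strands, and a match is a string of letters, not a bound site.

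The 250 bases before the starts of TNRC6B (chr22:40044584-40044833) and DGCR8 (chr22:20079991-20080240) are shown on the plus strand of GRCh38.p14, since these genes held the most CCAAT matches and lie under start peaks of near equal width in both libraries. Capitals mark CCAAT or its reverse complement.
TNRC6B: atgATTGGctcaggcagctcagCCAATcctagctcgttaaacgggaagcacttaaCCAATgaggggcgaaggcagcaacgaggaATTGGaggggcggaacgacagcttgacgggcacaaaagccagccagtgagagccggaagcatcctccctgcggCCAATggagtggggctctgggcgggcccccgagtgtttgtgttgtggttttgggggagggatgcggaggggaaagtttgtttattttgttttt
DGCR8: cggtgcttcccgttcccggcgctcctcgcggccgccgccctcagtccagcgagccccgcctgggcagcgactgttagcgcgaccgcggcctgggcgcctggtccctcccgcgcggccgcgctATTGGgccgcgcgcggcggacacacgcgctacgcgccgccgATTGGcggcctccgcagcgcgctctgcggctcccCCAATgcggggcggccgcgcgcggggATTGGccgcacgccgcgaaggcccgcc

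DROSHA, the nuclear RNase III enzyme, lies on the minus strand of chromosome 5 from 31400494 to 31532093. It had 4 peaks with daunorubicin and 2 without it, the sparsest marking among the members apart from DICER1. Marked length was 4038 bp against 2608 bp, a ratio of 1.55. The start peak, which also covers the start of the neighbouring gene C5orf22 and is the highest of the window in both lists, was 2295 bp wide with daunorubicin (score 118) and 2205 bp without it (score 181). A shared peak inside the gene, centred 61293 bp past the start, was 965 bp wide against 403 bp, with scores of 16 and 34. Both regions found only with daunorubicin were weak, with scores of 14 and 21. With equal numbers of peaks the difference at DROSHA was -313 bp, and with scores of at least 43 in both lists it was 90 bp.

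DGCR8, the double-stranded RNA-binding subunit of the Microprocessor, lies on chromosome 22 from 20080241 to 20111872 on the plus strand. Its marked length was nearly equal, at 11280 bp in the daunorubicin library and 11360 bp in the untreated library. The start region was 2555 bp wide with daunorubicin (score 331) and 2508 bp without it (score 359). Higher peaks of the window lay at 20116094 to 20119131, at TRMT2A, a tRNA methyltransferase gene, and RANBP1, a cofactor of nuclear transport (scores 384 and 523). The start was thus marked alike, and the sharpest contrast lay inside the gene.

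The untreated-only peak of DGCR8 covers 20084978 to 20085544, begins 4737 bp past the start and scored 246. By score it is the first of 4140 untreated-only peaks, and the second scored 178. In the untreated list as a whole 90.1% of peaks scored lower, so by itself the score is high but not extreme. The peak was 567 bp wide, against a median of 349 bp for untreated-only peaks. Of the 1419 untreated peaks within 20 score units of it, whose median width was 1536 bp, 9 (0.634%) were narrower. That set takes shared and untreated-only peaks together. Shared untreated peaks had a median of 886 bp in the whole list, so the untreated-only class is narrower. The peak was picked from that class by score, so this share does not measure how unusual its width is. The daunorubicin peak before it ends 3213 bp away and the next begins 5287 bp away. A gap of 1 kb, which counts nearby peaks as shared, therefore leaves it unshared, and no input peak overlapped it.

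The DGCR8 message carries hairpins that the Microprocessor itself can cut, and these lie just past the untreated-only peak. The MIR3618 hairpin begins 201 bp beyond it (20085746 to 20085833), and the arms of miR-1306 begin 527 bp and 567 bp beyond it. Neither list had a peak over any of them. The mature sequences are shown because they are the annotated small RNAs nearest to the strongest untreated-only peak. They are from RefSeq on GRCh38.p14, 5′ to 3′, with the seed (bases 2 to 8) in capitals, and the 3 seeds differ.
hsa-miR-3618: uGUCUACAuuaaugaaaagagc
hsa-miR-1306-5p: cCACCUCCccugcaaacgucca
hsa-miR-1306-3p: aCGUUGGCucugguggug

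**Figure D3:**
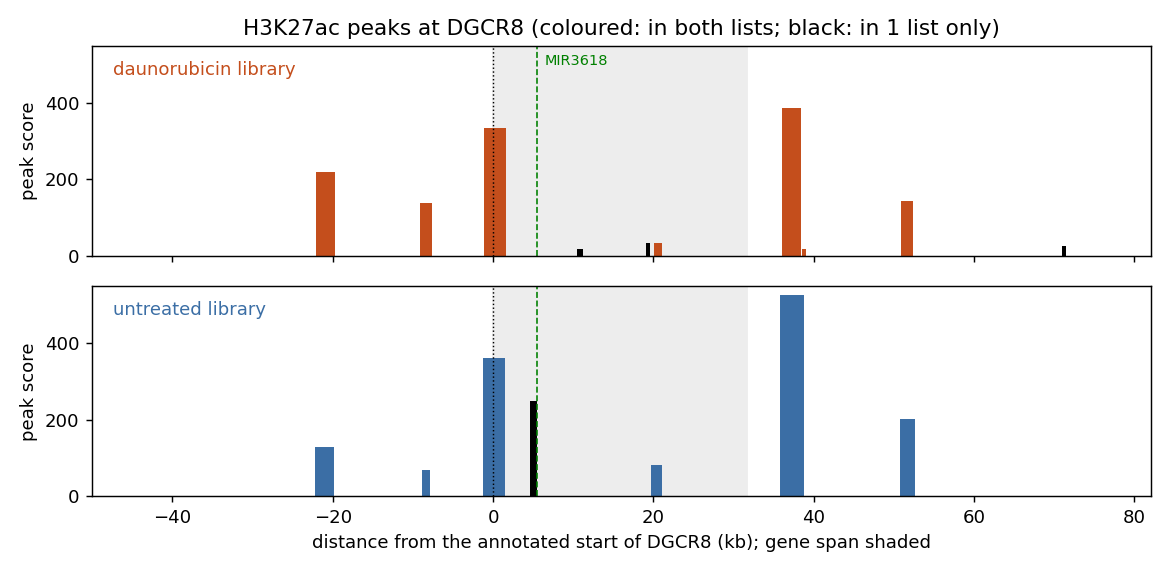
Peaks in the DGCR8 window by distance from its annotated start (kb, x axis) and score (y axis, each list's own scale), with the daunorubicin list above and the untreated list below; bar width is peak width plus a thin outline, the gene span is shaded, colour marks peaks in both lists, black marks peaks in 1 list, and the dashed line is the MIR3618 hairpin. The black bar of score 246 in the lower panel has no counterpart above it.

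Other differences inside DGCR8 were of like size and lay in both directions. Regions found only with daunorubicin lay at 20090832 to 20091325 (494 bp, score 14) and 20099420 to 20099630 (211 bp, score 32). A shared region beside the second was 712 bp wide with daunorubicin and 1166 bp without it. Over the gene span alone the lengths were 2941 bp and 3154 bp. The difference at DGCR8 was negative throughout, from -80 bp in the full lists to -2020 bp with the stricter score or equal numbers of peaks.

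DICER1, the cytoplasmic RNase III that cuts the hairpin's loop away, lies on the minus strand of chromosome 14 from 95086228 to 95158010. The untreated library had a single peak in the whole window, at the start (1679 bp, score 198), and the daunorubicin library had 4. The start peak was 1768 bp wide with daunorubicin (score 162), so the marked lengths of 3617 bp and 1679 bp, a ratio of 2.15, differed mainly by 3 added regions. Those lay at 95128253 to 95128723 (score 42) and 95143738 to 95144298 (score 23) inside the gene and at 95185605 to 95186421 (817 bp, score 46) in the flank. With equal numbers of peaks 2 of the 3 remained and the lengths were 3056 bp and 1679 bp. DICER1 also hosts MIR3173, which lay 5751 bp from the nearest daunorubicin peak and 18544 bp from the nearest untreated peak.

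AGO4 (35807636 to 35857890), AGO1 (35869761 to 35930532) and AGO3 (35930718 to 36072500) lie in that order on the plus strand of chromosome 1 and form a single locus. AGO1 ends 185 bp before AGO3 begins, and 11870 bp separate AGO4 from AGO1. Their windows share 18 of 26 regions, so their values are not independent. Over the joint window, 35757636 to 36122500, marked length was 20044 bp against 12846 bp in the untreated library (ratio 1.56). Of the 26 regions 9 were in both libraries, 14 only with daunorubicin and 3 only without it.

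Each Argonaute gene of this locus had a start peak of nearly the same width in both libraries. The start peak of AGO4 was 1223 bp wide with daunorubicin and 1178 bp without it, with scores of 378 and 398. In the untreated list a peak at CLSPN, 35768608 to 35770306, scored higher still in this window (332 and 417). The start peak of AGO3, also the highest in the window of AGO1, was 2051 bp and 1962 bp wide (scores 207 and 314). At AGO1 the start peak was narrower with daunorubicin, 1170 bp against 1251 bp (scores 106 and 108). A second shared region at the lower annotated end of AGO1, 35868793 to 35870663, was 1871 bp and 1655 bp wide.

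Of the 14 daunorubicin-only regions of the locus 10 lay inside 1 of the genes, 1 between AGO4 and AGO1, and 3 beyond the genes. AGO1 had 12484 bp against 7204 bp (11 daunorubicin-only regions, 2 untreated-only), AGO3 had 13044 bp against 8592 bp (9 and 3), and AGO4 had 10987 bp against 6859 bp (7 and 0). Of the daunorubicin-only peaks, 3 were at or above the list's median score. They lay at 35893973 to 35895154 inside AGO1 (1182 bp, score 61), at 35825110 to 35825769 inside AGO4 (660 bp, score 45) and at 35770550 to 35771279 (730 bp, score 99). The last was 463 bp from an untreated peak, at the start of CLSPN, which encodes a checkpoint mediator of replication stress, and with a gap of 1 kb it counts as shared. With equal numbers of peaks the 3 genes were still longer with daunorubicin, by 1185 bp at AGO1, 862 bp at AGO3 and 2697 bp at AGO4.

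AGO2 encodes the only human Argonaute with well-established slicer activity and lies on chromosome 8 from 140520156 to 140642313. No start is listed for it in the promoter table, and no peak lay within 1 kb of either annotated end. The nearest region to the higher end, 5766 bp inside the gene, was shared and 2305 bp wide with daunorubicin (score 148) and 2024 bp without it (score 235). Without a listed start it cannot be told whether this region lies at a start of AGO2. It was counted among the regions elsewhere. Marked length was 8782 bp against 6502 bp, a ratio of 1.35. Shared regions made up 1219 bp of the difference of 2280 bp. Inside the gene they were 1591 bp against 962 bp at 140618512 to 140620163 and 1460 bp against 702 bp at 140596609 to 140598068. The 3 daunorubicin-only regions summed to 1488 bp and scored from 26 to 40. An untreated-only region in the flank, 140678420 to 140678846, was 427 bp wide (score 19). The highest peaks of the window, 241 and 238, lay in the flank near CHRAC1, a chromatin remodelling subunit gene, where the region was narrower with daunorubicin, 1938 bp against 2387 bp.

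TNRC6A, the founding GW182 scaffold gene, lies on chromosome 16 from 24610205 to 24826218. Its listed start is at 24729651, where the peak was 1536 bp wide with daunorubicin (score 289) and 1422 bp without it (score 360). Marked length was 7988 bp against 5094 bp, a ratio of 1.57. All 6 daunorubicin-only and all 3 untreated-only regions lay inside the gene and scored between 11 and 31, below the median of either list. Among them was a wide one, 24736802 to 24738583 (1782 bp, score 31). With equal numbers of peaks none of the 6 remained and the difference at TNRC6A was -587 bp, whereas under the stricter score it was 2805 bp.

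TNRC6C, on chromosome 17 from 77957557 to 78108835, had 8610 bp marked in the daunorubicin library and 8681 bp in the untreated library. Its start region, 77957740 to 77959578, held a single untreated peak of 1400 bp (score 375) and 2 daunorubicin peaks of 962 bp (score 288) and 642 bp (score 40). The near equality joined opposite parts. Inside the gene the lengths were 3913 bp with daunorubicin and 3115 bp without it, and in the flanks 4697 bp and 5566 bp. Regions at starts or ends of TMC6 and TMC8, neighbouring membrane protein genes, and of C17orf99 summed to 2991 bp against 4082 bp. The difference at TNRC6C was 798 bp over its span alone. With equal numbers of peaks, where 6 daunorubicin and 11 untreated peaks were left in the window, it was -3082 bp.

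TNRC6B had the most marked sequence of the members in both libraries, though per 100 kb of window DGCR8 had more, 8569 bp against 7908 bp with daunorubicin and 8630 bp against 3663 bp without it. It lies on chromosome 22 from 40044834 to 40335808 on the plus strand, 291 kb in length, longer than or as long as 96.0% of protein-coding genes. The daunorubicin library had 37 peaks in its window and the untreated library 14, covering 30917 bp and 14321 bp, a ratio of 2.16. By gain it ranked 41 of 17631 marked genes, between ADGRV1 (16682 bp) and CDYL (16491 bp), against its own 16596 bp. Per 100 kb of window its gain of 4245 bp ranked 442. Its gain was 5893 bp, rank 174 of 17125, with equal numbers of peaks.

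The start of TNRC6B, which lies within 1 kb of an end of FAM83F, was marked to nearly the same width in both libraries, 2154 bp with daunorubicin (score 102) and 2120 bp without it (score 117). The highest peaks of its window were not its own: they lay at 40370484 to 40371571, at SGSM3, a GTPase regulator gene, with scores of 127 and 371. What differed were 22 regions found only with daunorubicin, 15 of them inside the gene, with widths from 223 bp to 1675 bp and a summed width of 14804 bp. Their scores ran from 13 to 50, and 4 reached the list's median. These were at 40014710 to 40015308 (score 49) and 40024181 to 40025250 (score 50) upstream and at 40055890 to 40056596 (score 46) and 40065846 to 40066199 (score 42) inside the gene. With a gap of 1 kb 21 of the 22 stayed unshared, but with equal numbers of peaks 6 did.

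Shared regions of TNRC6B added less. Of 12, 9 were wider with daunorubicin, and the 12 together were 2761 bp wider. An example is 40328662 to 40330273 near the 3' end of the gene, at 1612 bp against 452 bp (scores 86 and 22). The other way round were 2 wide untreated peaks inside the gene. A peak of 3459 bp in a region centred 132652 bp past the start was matched by 3 daunorubicin peaks of 1441 bp, 322 bp and 1209 bp, and a peak of 2087 bp centred 111599 bp past the start by 2 peaks of 363 bp and 1146 bp.

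Along the gene the added regions were uneven, in stretches chosen after the positions were seen. The first 60 kb held 6 daunorubicin-only regions and had 7440 bp marked with daunorubicin against 2702 bp. From 60 to 140 kb, where both wide untreated peaks lie, there was none, and the order was turned, 4481 bp against 5977 bp. From 140 to 220 kb there were 5, with 4345 bp against 615 bp, and the rest of the gene had 4, with 4288 bp against 452 bp.

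**Figure D4:**
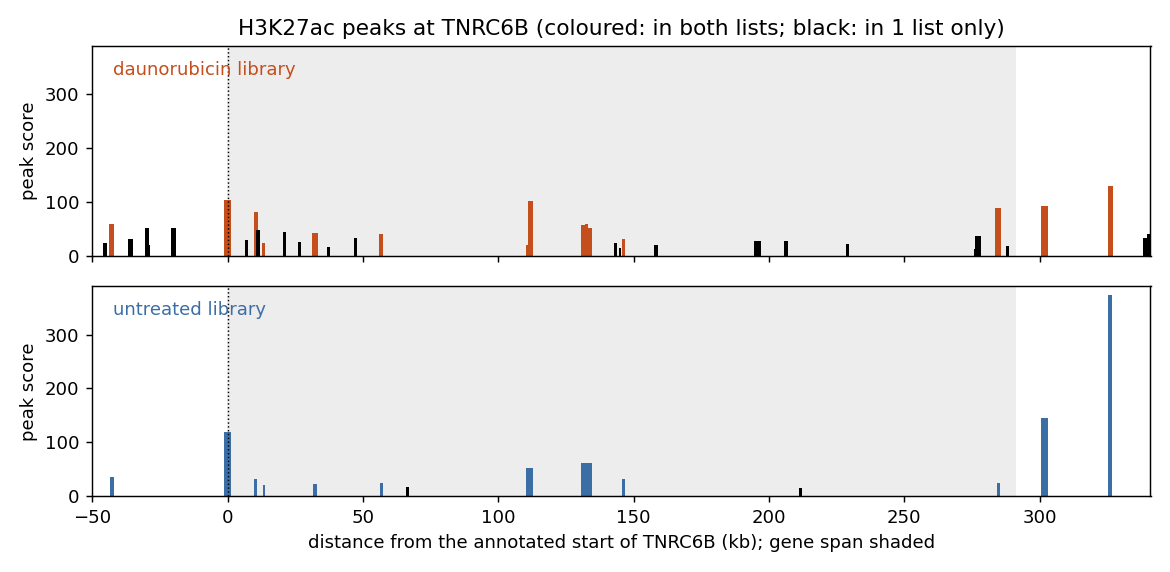
Peaks in the TNRC6B window by distance from its annotated start (kb, x axis) and score (y axis, each list's own scale), with the daunorubicin list above and the untreated list below; bar width is peak width plus a thin outline, the gene span is shaded, colour marks peaks in both lists and black marks peaks in 1 list. The 22 black daunorubicin peaks are low and leave a gap between 60 and 140 kb, and the untreated list has 2.

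Outside its own window, the genes whose pair of lengths in the 2 libraries was nearest to that of TNRC6B were SND1, PLCL1 and CDYL. SND1 encodes a Tudor-domain nuclease associated with the silencing complex, and had 30809 bp against 13338 bp. PLCL1, a phospholipase C-like gene, had 30017 bp against 14067 bp, and CDYL, a chromodomain corepressor gene, had 30223 bp against 13732 bp. Likeness was the sum of the absolute differences in both libraries, 1091 bp, 1154 bp and 1283 bp.

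Of 85 other genes of the pathway, in 8 lists, 83 were marked in either library, 73 of them longer with daunorubicin and 10 shorter. The share longer, 88.0%, and the share at least 1.5 times as long, 41.0%, were close to those of all marked genes (87.4% and 40.5%). The median difference was 1751 bp, against 1312 bp over all marked genes, with no allowance for gene length. Those backgrounds cover protein-coding genes only, whereas 13 of the 83 are microRNA host loci. Taking equal numbers of peaks, 56 of the pathway genes were longer and 26 shorter, against 65.4% longer among all marked genes. That share is also the background for the equal-number counts of each list below. Among the 17 deadenylation genes 16 were longer (median 2578 bp), and with equal numbers 13 were longer and 4 shorter. CNOT6, a catalytic deadenylase gene, had 9999 bp against 2299 bp and CNOT4, a ubiquitin ligase gene, had 10048 bp against 5234 bp. Of 12 decapping and decay genes 11 were longer (median 3483 bp; 9 and 3 with equal numbers), with LSM14A, a P-body protein gene, at 16872 bp against 7755 bp and EDC3, a decapping enhancer gene, at 11159 bp against 6032 bp. In the list of Argonaute and TNRC6 partners 10 of 12 were longer (median 2824 bp; 7 and 5 with equal numbers), with SND1 as above and GIGYF2, a translational repressor gene, at 8327 bp against 2389 bp.

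Against the same 87.4% of all marked genes, the 9 Dicer partner and loading genes were all longer in the full lists (median 2130 bp; 8 longer and 1 shorter with equal numbers), with ADAR, an RNA editing enzyme gene, at 11440 bp against 4526 bp and HSP90AB1, a chaperone gene, at 13327 bp against 8285 bp. All 8 tailing and let-7 control genes were longer there (median 2178 bp; 6 and 2 with equal numbers), with LIN28B, which blocks let-7 maturation, at 12756 bp against 6798 bp and DIS3L2, which degrades tailed precursors, at 8235 bp against 4187 bp. Among 10 Microprocessor cofactors 8 were longer (median 1115 bp) but none by 1.5 times, and with equal numbers 5 were longer and 5 shorter. HNRNPA1 had 13419 bp against 10333 bp and SRSF3 had 9994 bp against 7092 bp. Of the 2 export genes, 1 longer and 1 shorter under both settings, XPO5, which carries precursors out of the nucleus, had 8062 bp against 4755 bp and RAN had 5510 bp against 5727 bp. At 13 marked microRNA host loci 10 were longer (median 676 bp; 7 and 5 with equal numbers), with MIR34AHG at 4406 bp against 2832 bp and MIR144, an erythroid microRNA locus, at 10739 bp against 12235 bp.

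The direction of marked length was compared across the alternatives that recompute it. It held for DICER1, AGO1, AGO2, AGO3, AGO4 and TNRC6B, the 6 genes longer with daunorubicin throughout, and for DGCR8, shorter throughout. At DROSHA, TNRC6A and TNRC6C it did not. Removal of input peaks could not change the direction. The reciprocal overlap, the gap and the start distance do not enter marked length.

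**Figure D5:**
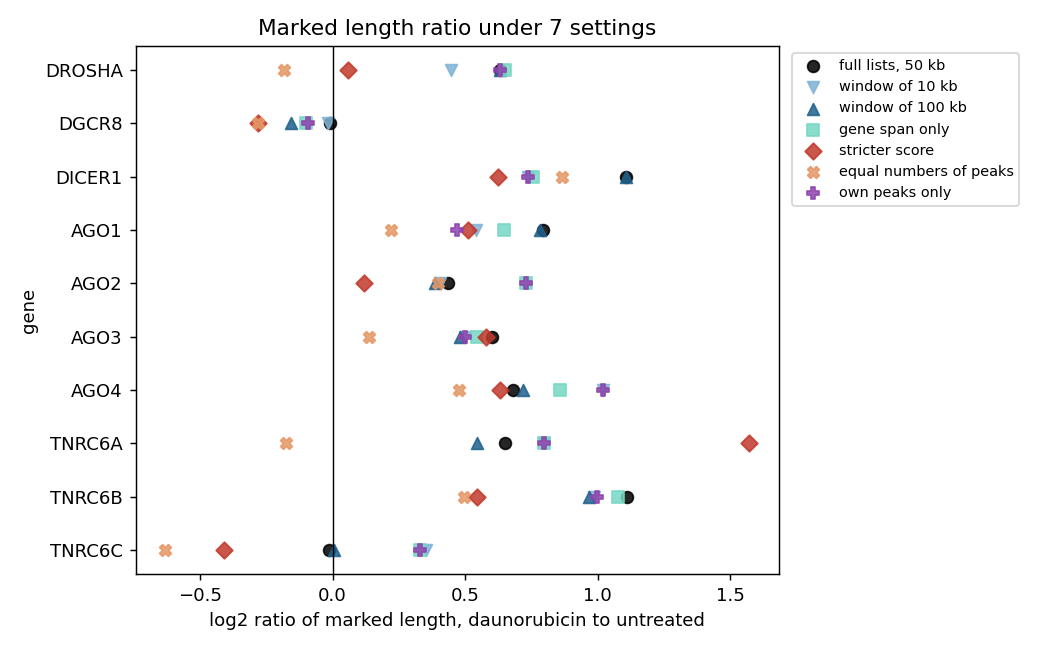
The log2 ratio of marked length, daunorubicin to untreated (x axis), of each gene (y axis) in the full lists with 50 kb flanks and under 6 alternatives (symbols). Values right of 0 are longer with daunorubicin: DGCR8 lies left of it under each of these settings, and DROSHA, TNRC6A and TNRC6C have values on both sides.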

How the data were processed

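Chromatin immunoprecipitation followed by sequencing was run on K562 cells, with 1 H3K27ac library and 1 input library per condition. MACS2 2.1.1, Bowtie2 2.3.4.3 and deepTools 3.2.1 appear in the submitters' processing notes, as do the builds hg19 and hg38, without settings. Each library has 1 peak list deposited by the authors, and the only measured value in the deposited lists is a score per peak; no source used here states its formula. Read depth is unknown. Sequence names in the lists are those of hg38.

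RefSeq tables of GRCh38.p14 gave the spans of genes and the starts of promoters. All 10 genes matched by symbol. Exons, introns and UTRs were not used here. The promoter table listed a start for 15843 of 20037 protein-coding genes, and either annotated end was used for the other 4194. Marked length is the number of base pairs under peaks in the gene span extended by 50 kb, with peaks cut at the window's edge. Peaks of both lists were joined into regions where they overlapped by at least 1 bp. With 1 library per condition no test was made. Shares of peaks are given without intervals, since peaks of 1 library are not replicates.

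The genes named were all 10 members, up to 2 genes with the largest absolute difference from each of 8 pathway lists, 3 genes with lengths nearest to those of TNRC6B, unshared peaks at or above their list's median score, and each window's highest peaks. Members, lists and rules were chosen with earlier results of these data known. The alternatives were windows of 10 kb, 100 kb and the span alone, scores of at least 43, the 38626 highest-scoring peaks of each list, removal of input peaks, peaks nearest to the gene only, 50% reciprocal overlap, a 1 kb gap and starts within 2.5 kb. Computation used Python 3.11.15 and numpy 2.4.6. Overlap functions were tested on simulated data against bedtools 2.31.1.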

Additional observations from a re-analysis of the deposited data

How the results depend on the processing

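The number of members longer with daunorubicin was 8 in the full lists. Under the 7 alternatives that recompute it, it ran from 6 with equal numbers of peaks to 9. The median difference of 2587 bp became 1442.5 bp with windows of 10 kb, 3360 bp with 100 kb, 1310 bp over the gene span only, 1486 bp when scores of at least 43 were asked for, 1023.5 bp for equal numbers of peaks and 1552.5 bp with each gene's own peaks only. The 55 regions found only with daunorubicin became 15 with that stricter score and 16 with equal numbers of peaks. The 13 found only without daunorubicin became 4 with the stricter score, 22 with equal numbers and 24 with a reciprocal overlap of 50%. Regions were classed anew under each setting, so the 15, 4, 22 and 24 include regions that were shared in the full lists. At TNRC6A, 3 of the 15 were shared regions whose untreated peak scored below 43. That cutoff was put on both lists, for which no common scale is stated. The 47 shared regions became 25 under the stricter score, 76 with windows of 100 kb, and 30 both over the gene span only and with own peaks only. Of 70 recomputed member differences 6 changed sign: with equal numbers of peaks DROSHA stood at -313 bp and TNRC6A at -587 bp, and TNRC6C, -71 bp in the full lists, stood at 935 bp with 10 kb, 43 bp with 100 kb and 798 bp with the span only or own peaks only. The cause was not tested. Removing input peaks changed no value and could change none, as no input peak lay in the windows. At least 1 start was marked at 9 members in each library under all 4 alternatives. Of these, starts within 2.5 kb could not lower the count, and equal numbers of peaks left the untreated list whole. No paired analysis was possible because each group has 1 library. The depth of each library is unknown, so its part in these differences was not tested.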
